A study of Mus musculus with 33 samples.

Results

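Tissue of the MNTB, the medial nucleus of the trapezoid body of the auditory brainstem, was profiled for gene expression and compared between mice at postnatal day 6 (P6) and mice at postnatal day 4 (P4). The comparison holds 9 of the 33 arrays of a postnatal time course, 5 from P6 and 4 from P4, chosen by the age in their titles, and it covers all 16686 probe sets. Every animal of the series, at either age, was a wild-type mouse described as FVB (the strain tag reads FVN), with no treatment, and each array held RNA from 1 mouse. The P6 mice carry the litter numbers 1 to 5 and the P4 mice the numbers 1, 2, 3 and 5. The remaining arrays came from P0, P1, P2 and P3 (5 mice each) and P14 (4 mice), and are used here for the shared estimate of spread and for the levels before and after. Tissue was drawn from live brainstem slices with a needle, so an array reports a mixture of neurons, glia and vessel cells, and the sex of the mice is not given in the labels. In such tissue a larger number of cells of a type and more RNA per cell cannot be told apart.

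Oligodendrocytes wrap axons of the central nervous system with myelin, a compact stack of membrane rich in galactolipids, cholesterol and a small set of structural proteins. They arise from precursor cells that pass through a short premyelinating stage before they switch on the genes of the sheath. The MNTB relays timing signals in the auditory brainstem. Its principal neurons receive the calyx of Held, and both their input and output axons are thick and myelinated in the adult.

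Among markers of the dissected nucleus, the transcription factor En1 read near the median of the arrays (4.78 at P6 and 5.00 at P4). Detection above background was not measured. Slc6a5, the glycine transporter of glycinergic neurons, averaged 10.86 ± 0.23 at P6 and 10.61 ± 0.12 at P4 on the log2 scale (SD, n = 5 and n = 4), and the calcium-binding proteins Calb1 and Pvalb, which mark principal neurons, averaged 9.99 and 10.41 at P6 against 9.29 and 9.13 at P4. The median log2 value of an array lay between 4.83 and 5.03 at P6 and between 4.92 and 5.03 at P4. Pearson correlations between arrays of an age lay between 0.967 and 0.990 at P6 and between 0.979 and 0.987 at P4. The P6 array of litter 4 stood apart, with the lowest median of the P6 arrays and an upper quartile of 6.28, and there is no P4 array of that number. It is kept below. Counts of calls without it are given, but for most single genes the change without it is not. All values are log2 expression on the authors' scale, so a difference of 1 is a 2-fold change, and levels of different probe sets cannot be compared.

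Between P6 and P4, 116 of 16686 probe sets passed the threshold of 0.05 on the adjusted p (limma with age and litter number as terms, Benjamini-Hochberg over all probe sets), which is 0.695%. Of these 98 were higher at P6 (0.587%) and 18 lower (0.108%), and changes of at least 2-fold numbered 33 higher and 1 lower. Over all probe sets the median change was -0.004 and 48.6% were positive. The called probe sets named 93 genes that rose and 18 that fell, and 5 carried no single symbol. Of the 93 genes that rose, 32 (34.4%) belonged to 6 lists of the oligodendrocyte lineage, which together hold 120 measured genes, so 26.7% of the measured list genes were called higher. The lists were chosen with earlier results of these data known, so these shares describe the calls and are not a test. Without litter number in the fit the counts were 70 higher and 10 lower, and a fit on the 9 arrays of P6 and P4 alone called 27 higher and 0 lower (25 higher and 3 lower without litter number). Without the P6 array of litter 4 they were 104 higher and 12 lower, and 100 of the 116 calls were shared. Quantile normalization gave 140 higher and 46 lower, centring each array 109 and 30, and array weights 159 and 54. Leaving out P4 litter 3 or P6 litter 1 gave 57 and 59 higher, and leaving out P4 litter 2 gave 10 lower.

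Proteins of the myelin membrane carried the largest changes. Of 19 measured members of this list 11 rose at P6, none fell, and the median change of the list was 1.11. The same 11 were higher in all 5 P6 mice than in any P4 mouse, against 1.10% of all probe sets that separate the mice in this direction. Mobp, a small cytoplasmic protein that helps to compact the sheath, changed most. Its level was 9.83, 9.40, 9.78, 9.54 and 9.5 in the P6 mice of litters 1 to 5, against 6.25, 5.94, 5.22 and 6.67 in the P4 mice of litters 1, 2, 3 and 5. Every P6 mouse lay far above every P4 mouse, and the P4 mice were the more spread. The change was 3.61 ± 0.167 (SE; 12.2-fold, adjusted p = 6.06e-14).

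Ermn encodes ermin, a protein of the outer cytoplasmic lip of the sheath that binds actin. The P6 mice had 7.46, 6.62, 6.36, 6.43 and 6.43, against 3.67, 3.44, 3.65 and 3.79 in the P4 mice. At P4 the probe set was dim, below the lower quartile of every P4 array (3.88 to 3.94), and the litter 1 mouse was the highest at P6. The change was 3.02 ± 0.141 (adjusted p = 6.06e-14). No fold is given for Ermn, since whether its P4 level was above background was not measured here. Mog, a glycoprotein on the outermost surface of the sheath, read 8.68, 7.78, 7.80, 8.0 and 7.83 in the P6 mice and 5.69, 4.99, 5.20 and 4.67 in the P4 mice. Again no mouse overlapped, and Mog changed by 2.90 ± 0.23 (7.44-fold, adjusted p = 7.9e-09). Mag, the adhesion molecule of the innermost wrap that faces the axon, had 8.86, 8.22, 8.03, 7.30 and 8.39 at P6 against 5.80, 5.34, 5.66 and 6.24 at P4. The litter 4 mouse was the lowest of the P6 group and still lay above the P4 mice. The difference for Mag was 2.44 ± 0.174 (5.42-fold, adjusted p = 8.47e-10).

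The promoters of these 4 genes are shown because they rose most among the sheath genes. Each window of 300 bases lies mostly before the annotated start and ends shortly after it (RefSeq, GRCm38.p6, read on the gene's strand). Capitals mark matches, on either strand, to ACAAAG and ACAATG, letters bound by SOX factors such as SOX10, and to CTGGCAC, letters bound by the myelin regulatory factor MYRF. Mobp lies at chr9:120149492-120149791 (plus strand), Ermn at chr2:58052815-58053114 (minus), Mog at chr17:37023349-37023648 (minus) and Mag, the first of its 3 entries, at chr7:30914814-30915113 (minus).
Mobp: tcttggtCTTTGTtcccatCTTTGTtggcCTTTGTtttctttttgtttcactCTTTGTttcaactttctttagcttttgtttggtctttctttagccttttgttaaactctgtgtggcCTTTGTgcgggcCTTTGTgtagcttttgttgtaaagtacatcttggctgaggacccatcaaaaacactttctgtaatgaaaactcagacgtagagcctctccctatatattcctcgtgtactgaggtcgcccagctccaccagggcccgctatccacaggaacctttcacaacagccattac
Ermn: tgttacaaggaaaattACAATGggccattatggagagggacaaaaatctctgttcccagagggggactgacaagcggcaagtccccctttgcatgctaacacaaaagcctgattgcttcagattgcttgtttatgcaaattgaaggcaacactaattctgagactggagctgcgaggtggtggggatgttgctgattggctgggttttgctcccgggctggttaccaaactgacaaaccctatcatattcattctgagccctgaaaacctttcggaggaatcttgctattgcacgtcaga
Mog: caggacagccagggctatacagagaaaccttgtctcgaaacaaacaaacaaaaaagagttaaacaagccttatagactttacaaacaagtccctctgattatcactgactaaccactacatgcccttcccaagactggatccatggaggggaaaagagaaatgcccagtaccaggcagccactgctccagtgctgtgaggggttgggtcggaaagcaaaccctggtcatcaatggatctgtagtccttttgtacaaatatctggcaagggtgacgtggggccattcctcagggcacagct
Mag: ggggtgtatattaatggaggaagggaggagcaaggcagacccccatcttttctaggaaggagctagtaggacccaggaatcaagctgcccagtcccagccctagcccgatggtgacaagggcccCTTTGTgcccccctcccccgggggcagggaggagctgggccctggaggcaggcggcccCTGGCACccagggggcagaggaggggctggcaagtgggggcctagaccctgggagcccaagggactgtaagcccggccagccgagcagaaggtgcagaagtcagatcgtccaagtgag

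In the Mobp window ACAAAG occurred 6 times, always on the opposite strand (printed as CTTTGT), all between -243 and -115 from the start. That is the highest count in any of the 32851 mouse promoter windows of this length, of which 3 (0.0091%) held 5 or more. A single match is common: 18.7% of the windows held ACAAAG, 12.6% ACAATG and 5.01% CTGGCAC. Ermn held 1 ACAATG, Mag held 1 ACAAAG and 1 CTGGCAC, and Mog held none of the 3. The E-box letters CAGCTG (16.3% of windows) and CATATG (3.91%) stood in none of the 4. Over the 13 called genes of the myelin protein and lipid lists with an entry, ACAAAG stood in 3, ACAATG in 2, CTGGCAC in 2, CAGCTG in 0 and CATATG in 1. These are matches of letters, and binding was not measured.

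The other 7 called sheath genes rose by 0.91 to 1.71. Tspan2, a tetraspanin of the oligodendrocyte surface, averaged 8.96 ± 0.39 at P6 and 7.34 ± 0.36 at P4. Mal, a proteolipid that sorts cargo to the myelin membrane, read 6.80, 5.85, 6.48, 5.92 and 6.04 in the P6 mice, against 4.81, 4.75, 4.94 and 4.90 in the P4 mice. The P4 mice were close together, below every P6 mouse, and the change was 1.38 ± 0.125 (2.61-fold, adjusted p = 9.88e-08). Mbp, which zips the inner faces of the membrane together, had 8.44, 8.30, 8.41, 8.0 and 8.23 at P6 against 7.06, 7.03, 7.06 and 7.18 at P4. This was a step of 1.19 ± 0.143 (2.28-fold, adjusted p = 1.78e-05) between groups with little spread. Cnp, the phosphodiesterase that keeps cytoplasmic channels open, averaged 8.33 ± 0.37 at P6 and 7.08 ± 0.41 at P4. Cldn11, the tight junction protein of the sheath, averaged 6.51 ± 0.37 at P6 and 5.34 ± 0.30 at P4. Gjc3, a gap junction subunit, changed by 1.11, and Pllp (plasmolipin) by 0.91. Myrf has no probe set with that symbol alone and was not analysed here.

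**Figure D1:**
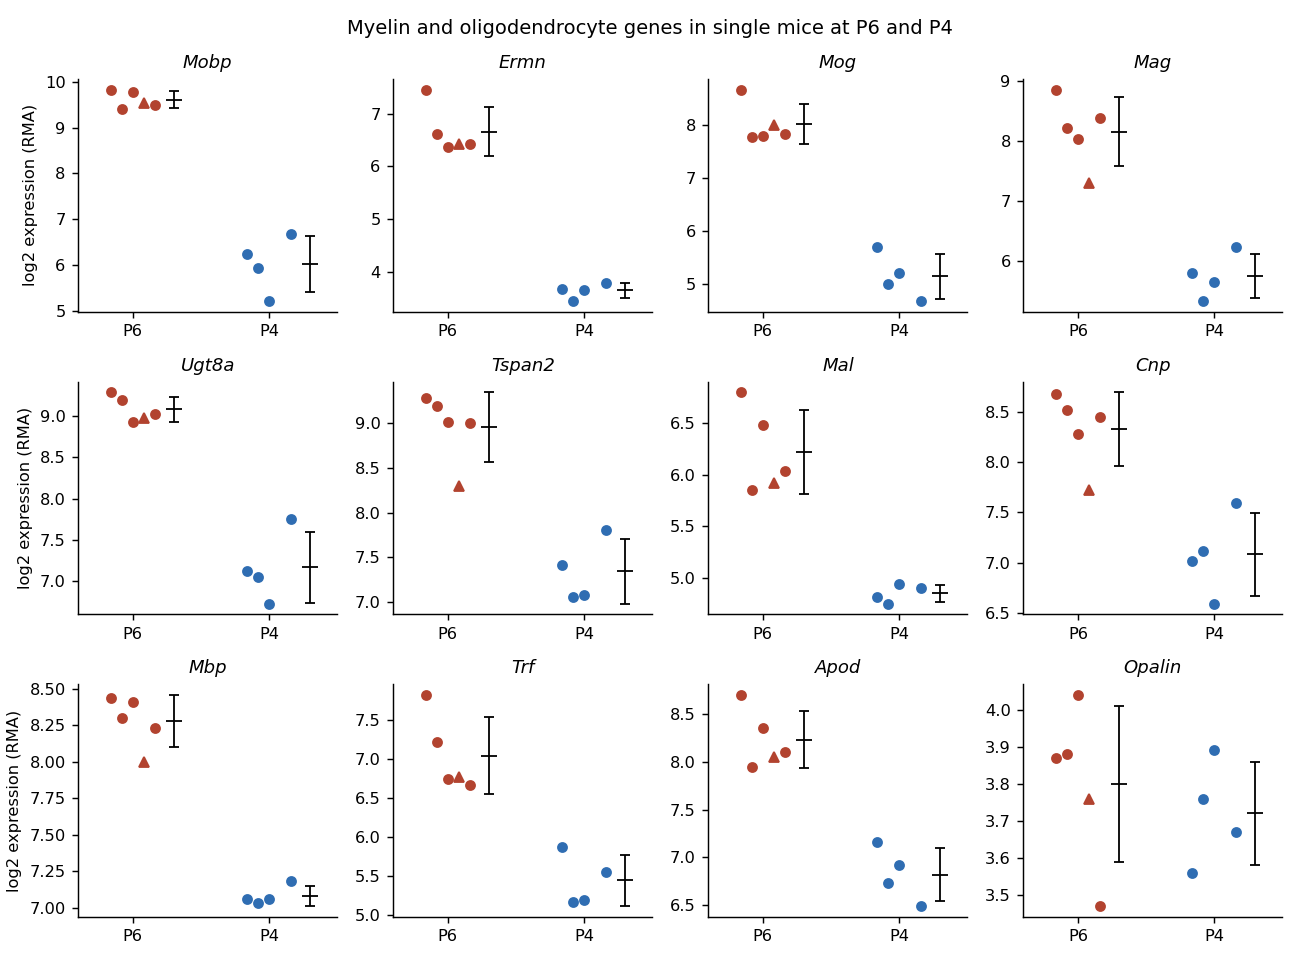
Log2 expression in single mice for 12 genes of myelin and oligodendrocytes, P6 mice (red) left of P4 mice (blue), each panel on its own scale. Triangles mark the P6 mouse of litter 4, and bars show the mean ± SD (n = 5 at P6, n = 4 at P4). For 11 of the genes every P6 mouse lies above every P4 mouse, and for Opalin the ages overlap.

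Other sheath genes did not pass the test at P6. Plekhb1 came nearest, with a change of 0.58 (adjusted p = 0.0568) and ages that overlapped. Opalin, a transmembrane glycoprotein of mature oligodendrocytes, read 3.87, 3.88, 4.04, 3.76 and 3.47 in the P6 mice and 3.56, 3.76, 3.89 and 3.67 in the P4 mice. These ages overlapped and the difference was 0.06 ± 0.129 (adjusted p = 0.994). Opalin was dim, with means of 3.80 at P6 and 3.72 at P4. These lay below the lower quartile of every array of the age (3.87 to 4.03 and 3.88 to 3.94). Whether they were above background was not measured, so a small change could have been missed. By P14 the mean of Opalin was 8.92 ± 0.34 (n = 4), 5.14 above P6. The gap junction subunit Gjb1 changed by 0.54 between P6 and P4 (adjusted p = 0.247) and by 4.29 between P14 and P6. Hapln2, a link protein at nodes, changed by 0.00 and Ninj2 by -0.02, both far from the threshold. Ninj2 (mean 3.53 at either age) and Gjb1 at P4 (mean 3.62) were in the same dim range as Opalin. All 19 members passed the test between P14 and P6, each higher at P14, where 16.2% of all probe sets were called higher. That comparison depended on the scaling, with 2699 probe sets higher and 1025 lower as deposited and 1918 higher and 1849 lower after quantile normalization.

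The step between P4 and P6 was then set against the step of equal length before it, between P2 and P4. The difference of the 2 steps was fitted directly, since both use the P4 mice, and is called the change of pace here. It passed the test with a positive sign for 4 probe sets (0.0240% of all) and with a negative sign for 0 (641 had an unadjusted p under 0.05 in either direction, limma). All 4 were sheath genes. Ermn, dim up to P4, changed by 3.02 in the later step and 0.27 in the earlier one, a change of pace of 2.75 ± 0.25 (adjusted p = 5.31e-07). For Mog the steps were 2.90 and 0.28 and the change of pace was 2.61 ± 0.408 (adjusted p = 0.00523). Mobp had already risen by 1.20 between P2 and P4 (adjusted p = 0.000188), and its later step was larger by 2.41 ± 0.296 (adjusted p = 0.000119). Mal changed by 1.38 and 0.11, and its change of pace was 1.27 ± 0.221 (adjusted p = 0.0201). Mog and Mal also stayed near their level at birth up to P4, and Mobp up to P3. Whether those levels were above background was not measured. The folds of Mog and Mal and the changes of pace of Mog, Mal and Mobp carry this limit.

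Ermn was removed by the filter on dim probe sets and was not tested there. Otherwise the calls for Mobp and Ermn remained in every alternative that was run. That for Mog was lost without P4 litter 2 or P4 litter 5 (adjusted p = 0.0663 and 0.0783). That for Mal was lost without litter number in the fit (adjusted p = 0.081) and in 5 of 9 fits that left out 1 mouse, namely P6 litter 3 or any of the P4 mice (adjusted p up to 0.229).

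Up to P3 these genes were close to their level at birth. The mean of Ermn was 3.27 at P0, 3.29 at P1, 3.37 at P2, 3.37 at P3, 3.64 at P4, 6.66 at P6 and 10.97 at P14. For Mog the means in the same order were 5.05, 4.88, 4.84, 4.77, 5.14, 8.02 and 11.59, and for Mobp 4.66, 4.64, 4.79, 4.76, 6.02, 9.61 and 11.59. Mbp followed another course, with means of 4.76, 5.03, 5.76, 6.61, 7.08, 8.28 and 9.20. Its steps were 1.19 between P4 and P6 and 1.32 between P2 and P4, a change of pace of -0.13 ± 0.253 (adjusted p = 0.999). Cnp had a later step of 1.28 and an earlier one of 0.91, Ugt8a of 1.90 and 0.97, and Mag of 2.44 and 1.51. Each of these steps passed its own test, 0.270% of all probe sets being called higher between P4 and P2, and none of these genes had a change of pace past the threshold (adjusted p = 0.999 for each). Trf and Apod, described below, had earlier steps of 0.04 and -0.04, yet their changes of pace of 1.59 and 1.5 did not pass either (adjusted p = 0.166 and 0.477). Steps that share the P4 or the P6 mice are not independent of each other.

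**Figure D2:**
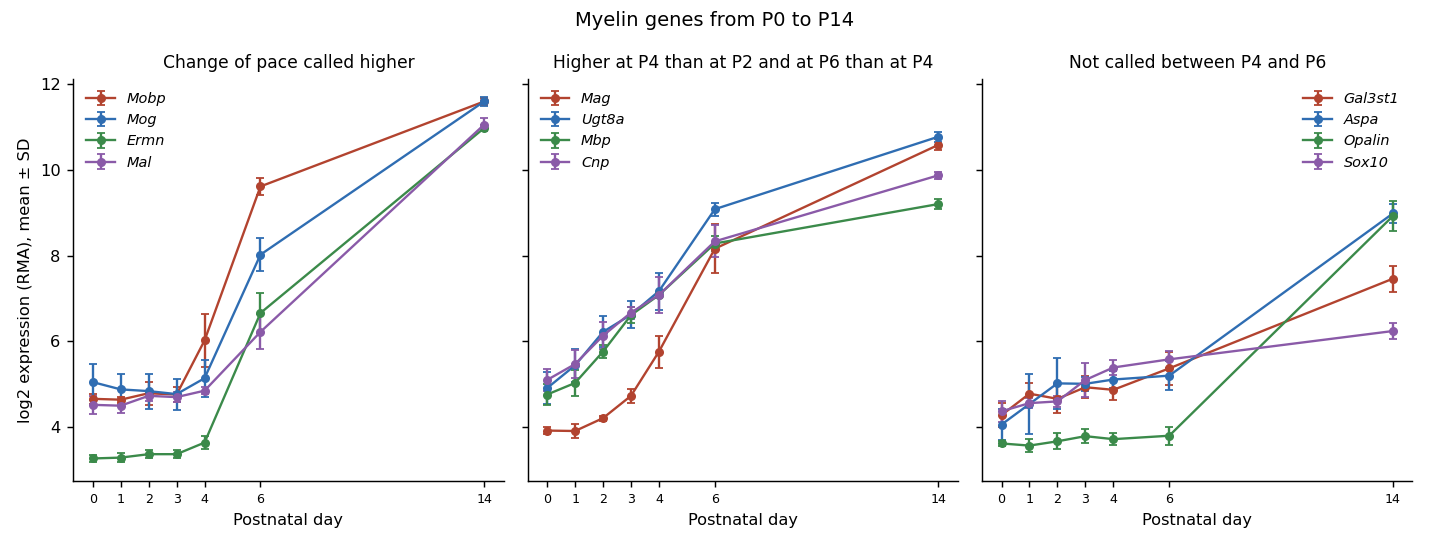
Mean log2 expression ± SD by postnatal day (n = 5, and n = 4 at P4 and P14) for 12 genes. Left, the 4 genes whose change of pace was called are near their level at birth up to P3 and steep between P4 and P6. Middle, Mag, Ugt8a, Mbp and Cnp climb before P4 as well. Right, Gal3st1, Aspa, Opalin and Sox10 were not called between P4 and P6.

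The lipids of the sheath are made by enzymes that oligodendrocytes switch on together with its proteins. Of 21 measured genes of lipid synthesis and transport 4 rose and none fell, with a median change of 0.374. Ugt8a, which makes galactosylceramide, read 9.29, 9.20, 8.93, 8.98 and 9.02 in the P6 mice and 7.13, 7.05, 6.73 and 7.76 in the P4 mice. All P6 mice were above all P4 mice, with the P4 mouse of litter 5 nearest to them, and the change was 1.90 ± 0.215 (3.72-fold, adjusted p = 7.26e-06). Elovl7, an elongase of long fatty acids, averaged 9.17 ± 0.31 at P6 and 7.70 ± 0.65 at P4 (change 1.56, adjusted p = 0.00143). Fa2h, which hydroxylates the fatty acids of galactolipids, averaged 7.58 ± 0.18 at P6 and 6.57 ± 0.19 at P4 (change 1.08, adjusted p = 0.00972), and its call was lost without P6 litter 1, P4 litter 2 or P4 litter 3 (adjusted p up to 0.0745). Elovl5, another elongase, whose ages overlapped, changed by 0.60 (adjusted p = 0.0241), which was lost without litter number in the fit (adjusted p = 0.28). It was also lost in 6 of the 9 fits without 1 mouse, those without P6 litters 1, 2 or 5 or P4 litters 1, 2 or 3 (adjusted p up to 0.126). Elovl1, which elongates very long fatty acids, differed by 1.05 and missed the threshold (adjusted p = 0.163). The list kept 2 calls without P6 litter 1, P4 litter 2 or P4 litter 3.

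Other enzymes of sheath lipids did not pass the test. Gal3st1, which sulfates galactosylceramide to sulfatide, read 5.60, 5.80, 5.34, 4.79 and 5.33 in the P6 mice against 4.68, 4.97, 5.15 and 4.69 in the P4 mice. The ages overlapped and the difference was 0.51 ± 0.203 (adjusted p = 0.546), while Gal3st1 was 2.08 higher at P14 than at P6. Aspa, which frees acetate for lipid synthesis in oligodendrocytes, differed by 0.18 ± 0.257 between P6 and P4 (adjusted p = 0.994) and by 3.68 between P14 and P6. All 17 measured genes of the cholesterol synthesis list, which holds the regulators Srebf2 and Insig1 beside enzymes, had a positive change between P6 and P4, with a median of 0.433, and 1 passed. This was Hmgcs1, the cytosolic HMG-CoA synthase, with 9.99 ± 0.20 at P6 and 9.56 ± 0.11 at P4 (change 0.50, adjusted p = 0.0478). The call of Hmgcs1 was lost when any 1 of the 9 mice was left out (adjusted p up to 0.203) and without litter number in the fit (adjusted p = 0.29).

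**Figure D3:**
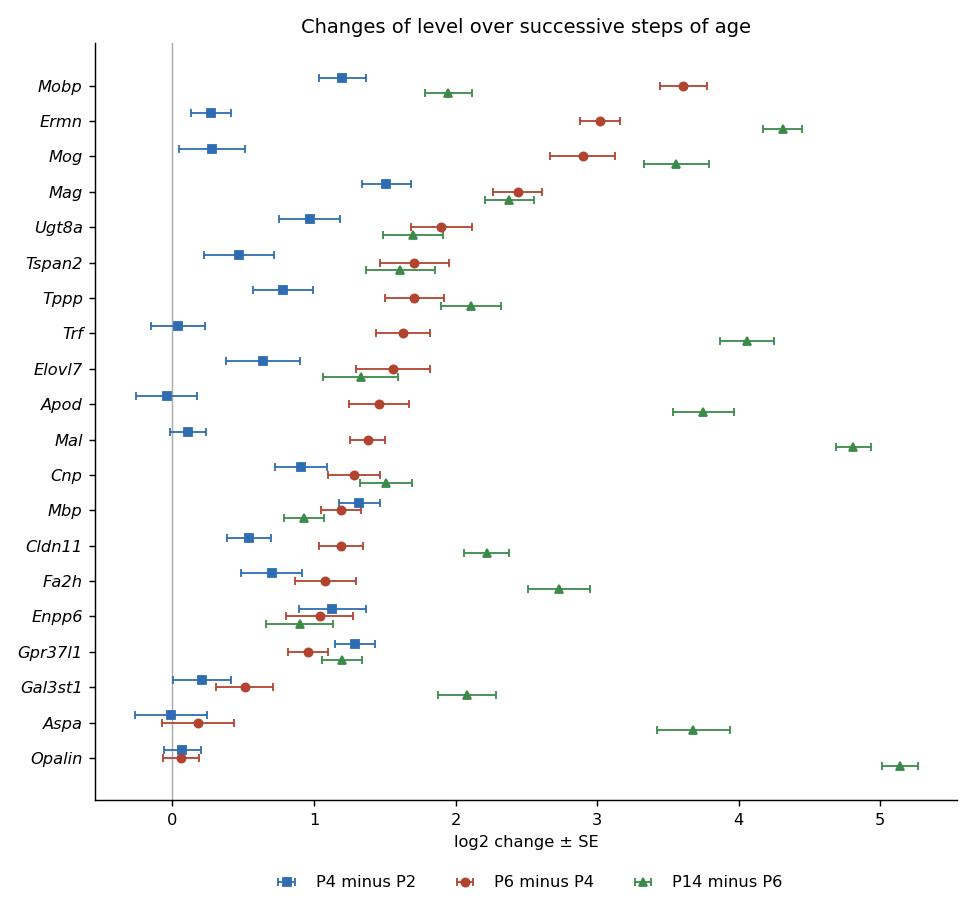
Log2 change ± SE (limma) of 20 genes over the steps from P2 to P4 (blue squares), P4 to P6 (red circles) and P6 to P14 (green triangles). The last step spans more days than the others. Ermn and Mog sit near 0 in the first step and near 3 in the second, Mbp and Enpp6 change by similar amounts in both, and Opalin and Aspa sit near 0 in both.

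Among markers of newly formed oligodendrocytes all 19 measured members had a positive change, the median was 0.615 and 7 passed the test. Gpr37l1, a G protein-coupled receptor that astrocytes express as well, averaged 7.62 ± 0.16 at P6 and 6.71 ± 0.20 at P4 (change 0.96, adjusted p = 0.000226) and had changed by 1.29 between P2 and P4. Enpp6, a choline phosphodiesterase of cells that have just left the precursor stage, read 7.48, 6.90, 6.92, 6.20 and 6.54 in the P6 mice and 5.52, 5.69, 5.44 and 6.54 in the P4 mice. The P4 mouse of litter 5 reached the lower P6 mice, and the change of 1.04 ± 0.237 passed (adjusted p = 0.0319), after one of 1.13 between P2 and P4. Cnksr3, a scaffold protein, changed by 1.0 and Cemip2, a hyaluronidase, by 0.85. The P6 mouse of litter 4 lay among the P4 mice for Cnksr3 and below them for Cemip2. Itpr2, a calcium release channel, changed by 0.79, Frmd4a by 0.62 and the deacetylase Sirt2 by 0.58. Gpr17, a receptor of the premyelinating stage, differed by 0.62 ± 0.236 (adjusted p = 0.483) and Bcas1 by 0.31 ± 0.149 (adjusted p = 0.731).

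Calls in the newly formed list were sensitive to single mice. It held 3 calls without P6 litter 1, P6 litter 2, P4 litter 2 or P4 litter 3, 4 without P6 litter 5 or P4 litter 1 or without litter number in the fit, and 8 without P6 litter 4. Enpp6 lost its call without P6 litters 1, 2 or 3 or P4 litters 1, 2 or 3 (adjusted p up to 0.203), and Cemip2 without P6 litters 1, 2, 3 or 5 or P4 litters 1, 2 or 3 (adjusted p up to 0.143) or without litter number in the fit (adjusted p = 0.0652). In the fits named here with 3 or 4 calls, Gpr37l1 and Cnksr3 kept theirs. Calls among Itpr2, Frmd4a and Sirt2 were therefore lost in these fits as well.

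Of 24 measured markers of mature oligodendrocytes 7 rose and none fell, and the median change was 0.215. Tppp, which stabilises microtubules, averaged 7.55 ± 0.43 at P6 and 5.88 ± 0.46 at P4 (change 1.71, adjusted p = 2.39e-05). Trf, the iron carrier transferrin, read 7.82, 7.21, 6.74, 6.76 and 6.67 in the P6 mice and 5.87, 5.16, 5.19 and 5.55 in the P4 mice. The mice of the 2 ages did not overlap and Trf changed by 1.63 ± 0.191 (3.10-fold, adjusted p = 1.25e-05). Apod, a lipid carrier, read 8.70, 7.95, 8.35, 8.05 and 8.10 in the P6 mice and 7.16, 6.73, 6.92 and 6.49 in the P4 mice, again without overlap. It changed by 1.46 ± 0.214 (2.75-fold, adjusted p = 0.000226). Gpr37, a receptor related to Gpr37l1, changed by 0.86, the actin-severing gelsolin (Gsn) by 0.84, Septin4 by 0.77 and the transporter Nipal4 by 0.71. Without litter number in the fit the list had 6 calls, with Tppp, Trf, Apod and Gpr37 among them. The lowest member was Qdpr, with a change of -0.15. Among others not called, Ndrg1 changed by -0.04, Klk6 by 0.04 and Anln by 0.04 between P6 and P4, and by 3.53, 3.12 and 2.92 between P14 and P6.

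Precursor markers and lineage transcription factors contributed few calls. Of 17 measured precursor genes 1 rose, Sema5a (a semaphorin, change 0.62, adjusted p = 0.0144), and the median was 0.086. Sema5a lost its call without P6 litter 1 or P4 litters 1, 2 or 3 (adjusted p up to 0.102). Pdgfra, the growth factor receptor of precursors, read 8.03, 8.15, 7.42, 6.95 and 7.58 in the P6 mice and 7.35, 7.78, 7.25 and 7.52 in the P4 mice. The P4 values lay within the P6 range and the difference was 0.22 ± 0.194 (adjusted p = 0.975). Cspg4, the NG2 proteoglycan, differed by 0.06 ± 0.128 (adjusted p = 0.994). Among 21 transcription factors and regulators of the lineage 2 rose and none fell, with a median of 0.084. Zfp536, a zinc finger protein, averaged 3.95 ± 0.39 at P6 and 3.30 ± 0.05 at P4, in the dim range of the array (change 0.67, adjusted p = 0.00784). Zeb2, a repressor of inhibitory signals to myelination, averaged 7.73 ± 0.39 at P6 and 7.13 ± 0.14 at P4 (change 0.67, adjusted p = 0.00807). The ages overlapped for Zeb2, and it lost its call without P4 litter 3 (adjusted p = 0.0636) or without litter number in the fit (adjusted p = 0.079).

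Sox10, which drives myelin genes together with Myrf, read 5.68, 5.61, 5.73, 5.23 and 5.66 in the P6 mice against 5.28, 5.29, 5.66 and 5.32 in the P4 mice. The ages overlapped through P6 litter 4 and P4 litter 3, and the difference of 0.21 ± 0.147 did not pass (adjusted p = 0.932). The step between P4 and P2 was 0.77 (adjusted p = 0.0102), and the change of pace of Sox10 was -0.56 ± 0.26 (adjusted p = 0.999). Olig2, the basic helix-loop-helix factor of the lineage, differed by 0.04 ± 0.156 (adjusted p = 0.999), Nkx6-2 by 0.22 ± 0.135 (adjusted p = 0.889) and Nkx2-2 by -0.12 ± 0.148 (adjusted p = 0.992). Nkx2-2 was dim, with means of 3.68 at P6 and 3.82 at P4.

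**Figure D4:**
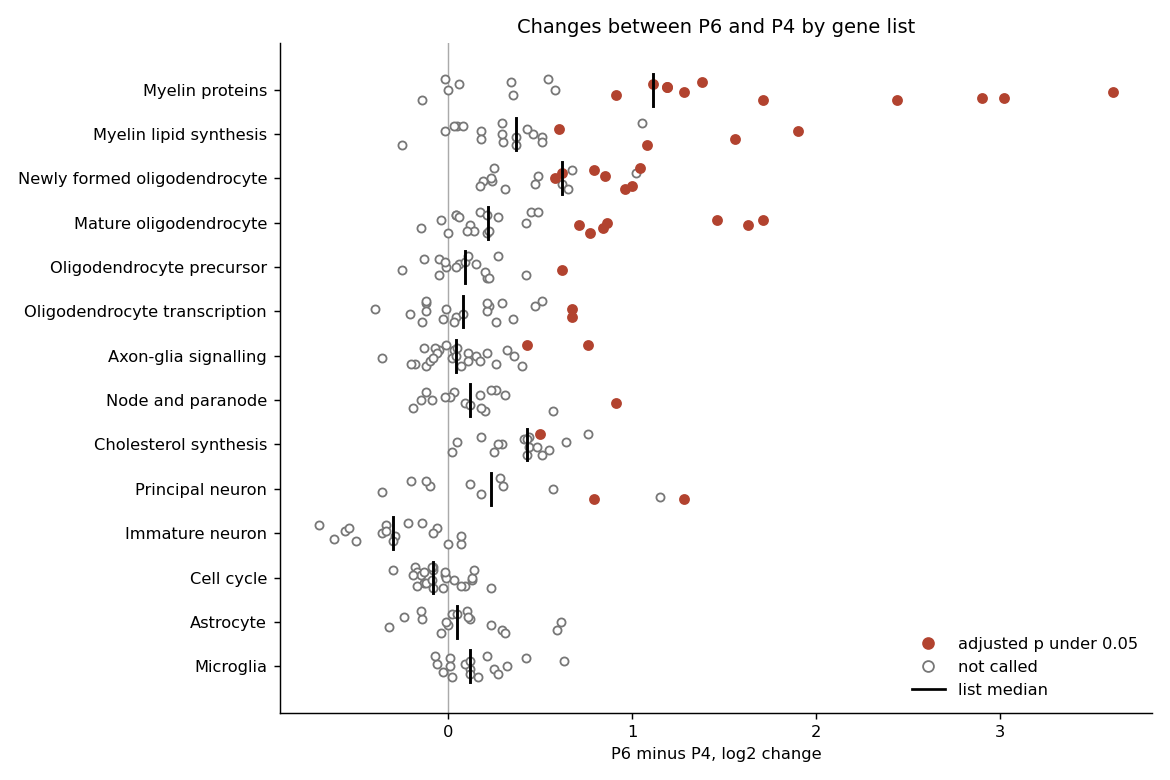
Log2 change, P6 minus P4, of each measured member of 14 gene lists. Filled red circles passed the threshold on the adjusted p (limma), open circles did not, and the bar is the list median. Calls gather in the myelin and oligodendrocyte lists at the top, the cholesterol genes lie to the right of 0 with 1 call, and the immature neuron genes lie mostly to the left of 0 with none.

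Signals between axon and glia and proteins of the node were mostly below the threshold. Of 27 measured signalling genes 2 rose, with a list median of 0.035. Erbb3, the receptor for axonal neuregulin, read 4.25, 4.38, 4.19, 4.32 and 4.11 in the P6 mice and 3.83, 3.84, 3.75 and 3.82 in the P4 mice. The values are dim but did not overlap, and the change was 0.43 ± 0.075 (adjusted p = 0.00223). Lpar1, a receptor for lysophosphatidic acid on oligodendrocytes, averaged 5.94 ± 0.28 at P6 and 5.11 ± 0.12 at P4 (change 0.76, adjusted p = 0.00436). Nrg1 itself differed by 0.36 (adjusted p = 0.755). Of 17 genes of nodes and paranodes 1 rose. Nfasc, whose forms anchor the glial side of the paranode and the axonal side of the node, read 9.26, 9.06, 8.65, 8.20 and 8.90 in the P6 mice against 7.86, 7.96, 7.93 and 8.07 in the P4 mice. P6 litter 4 was the lowest of its age and closest to the P4 mice, and the change was 0.91 ± 0.155 (adjusted p = 0.00153). The probe set does not tell the forms apart. The axonal partners Cntnap1 and Cntn1 differed by 0.18 (adjusted p = 0.98) and 0.01 (adjusted p = 1.0).

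Among 12 genes of the principal neurons 2 rose and none was called lower. The change was positive for 8 and negative for 4, with a list median of 0.227, and Foxp1 was lowest at -0.363. In 1 member every P6 mouse lay below every P4 mouse, against 1.32% of all probe sets. Pvalb read 10.48, 10.15, 10.65, 10.27 and 10.49 in the P6 mice and 8.92, 8.50, 9.44 and 9.64 in the P4 mice. No P6 mouse overlapped a P4 mouse, and the change was 1.28 ± 0.193 (2.43-fold, adjusted p = 0.000313), after a step of 1.77 between P2 and P4. Calb1, whose ages overlapped, changed by 0.79 ± 0.178 (adjusted p = 0.0272). That call was lost without litter number in the fit (adjusted p = 0.176) and without P6 litters 1, 2 or 5 or P4 litters 1, 2 or 3 (adjusted p up to 0.164). The glycine receptor subunit Glra1 differed by 1.15 and missed the threshold (adjusted p = 0.0611). Other neuronal lists held single calls. The AMPA receptor subunit Gria3 averaged 8.48 ± 0.49 at P6 and 7.57 ± 0.46 at P4, and the ages overlapped. Its change was 1.01 (adjusted p = 0.00359, and 0.0555 without litter number in the fit). Gria3 was the 1 call among 12 measured glutamate receptor genes, of which 8 had a negative change (list median -0.055). Cacna1g, a T-type calcium channel, fell, with 5.85 ± 0.17 at P6 and 6.39 ± 0.13 at P4 (change -0.50, adjusted p = 0.0324). That call was lost when any mouse but P4 litter 1 was left out (adjusted p up to 0.16). Cacna1g was the 1 call among 13 measured calcium channel genes, of which 10 had a negative change (list median -0.189). Lgi3, a secreted protein, changed by 0.63 (adjusted p = 0.0392; 0.185 without litter number, and up to 0.278 without P6 litters 1, 2, 3 or 5 or P4 litters 1 or 2). Its ages overlapped, and it was the 1 call among 18 measured genes of the extracellular matrix (list median 0.083). No member of the lists for potassium channels (16 measured), sodium channels (6), inhibitory receptors (11) or synaptic vesicles and the active zone (28) passed.

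Genes of immature neurons ran the other way without a call. Of 17 measured, 15 had a negative change and the median was -0.296. Dcx, a microtubule protein of migrating and growing neurons, read 8.17, 8.26, 8.19, 7.45 and 8.03 in the P6 mice and 8.34, 8.84, 8.73 and 8.60 in the P4 mice. The P6 mice were all below the P4 mice by a narrow margin, and the difference of -0.56 ± 0.158 did not pass (adjusted p = 0.14). Dcx was called lower after quantile normalization (adjusted p = 0.0103) and with array weights, and its adjusted p ran up to 0.443 over the other alternatives. Over all probe sets, 1.32% separated the mice with P6 lower. The 25 measured cell cycle genes had a median change of -0.079 and 0 calls.

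Of the 18 genes that fell, 12 are described here and in the panels of single mice. Dbpht2 had the largest decrease, with 7.22, 6.61, 6.58, 5.89 and 5.59 in the P6 mice and 7.57, 7.5, 7.68 and 7.41 in the P4 mice. The P6 mice were scattered below a tight P4 group, and the change was -1.07 ± 0.245 (adjusted p = 0.0322). Stc1, the secreted hormone stanniocalcin, averaged 5.46 ± 0.30 at P6 and 6.48 ± 0.38 at P4 (change -1.0, adjusted p = 0.00384). Vim, the intermediate filament of radial glia and immature astrocytes, read 6.83, 7.06, 7.01, 6.96 and 7.01 in the P6 mice and 7.65, 7.65, 7.62 and 7.49 in the P4 mice. Both groups were tight and apart, and the change was -0.62 ± 0.102 (adjusted p = 0.0011). St8sia2, which adds polysialic acid to the adhesion molecule NCAM in the young brain, averaged 4.33 ± 0.15 at P6 and 4.97 ± 0.19 at P4 (change -0.63, adjusted p = 0.00807). Cbln1, a synaptic organiser, changed by -0.65 (adjusted p = 0.0224), Cnih2, an auxiliary subunit of AMPA receptors, by -0.74 (adjusted p = 0.00232), and Enc1, an actin-binding protein of neurons, by -0.63 (adjusted p = 0.0269). Stk32b changed by -0.89, Jpt1 by -0.77, Khdrbs2 by -0.76, Ablim3 by -0.71 and the phosphatase inhibitor Ppp1r1a by -0.66.

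Several decreases lost their call when a mouse was left out. Dbpht2 lost its call in 7 of 9 such fits, all but those without P6 litters 1 or 2 (adjusted p up to 0.154), and Ablim3 in 7, all but those without P6 litter 5 or P4 litter 1 (adjusted p up to 0.205). Cbln1 kept its call without P6 litters 3, 4 or 5 only (adjusted p up to 0.146), Enc1 without P6 litters 2 or 5 or P4 litter 1 only (adjusted p up to 0.158), and St8sia2 lost it without P4 litters 1 or 3 (adjusted p up to 0.0635). Without litter number in the fit Dbpht2, Jpt1, Ablim3 and Ppp1r1a were not called (adjusted p = 0.143, 0.066, 0.0653 and 0.363).

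**Figure D5:**
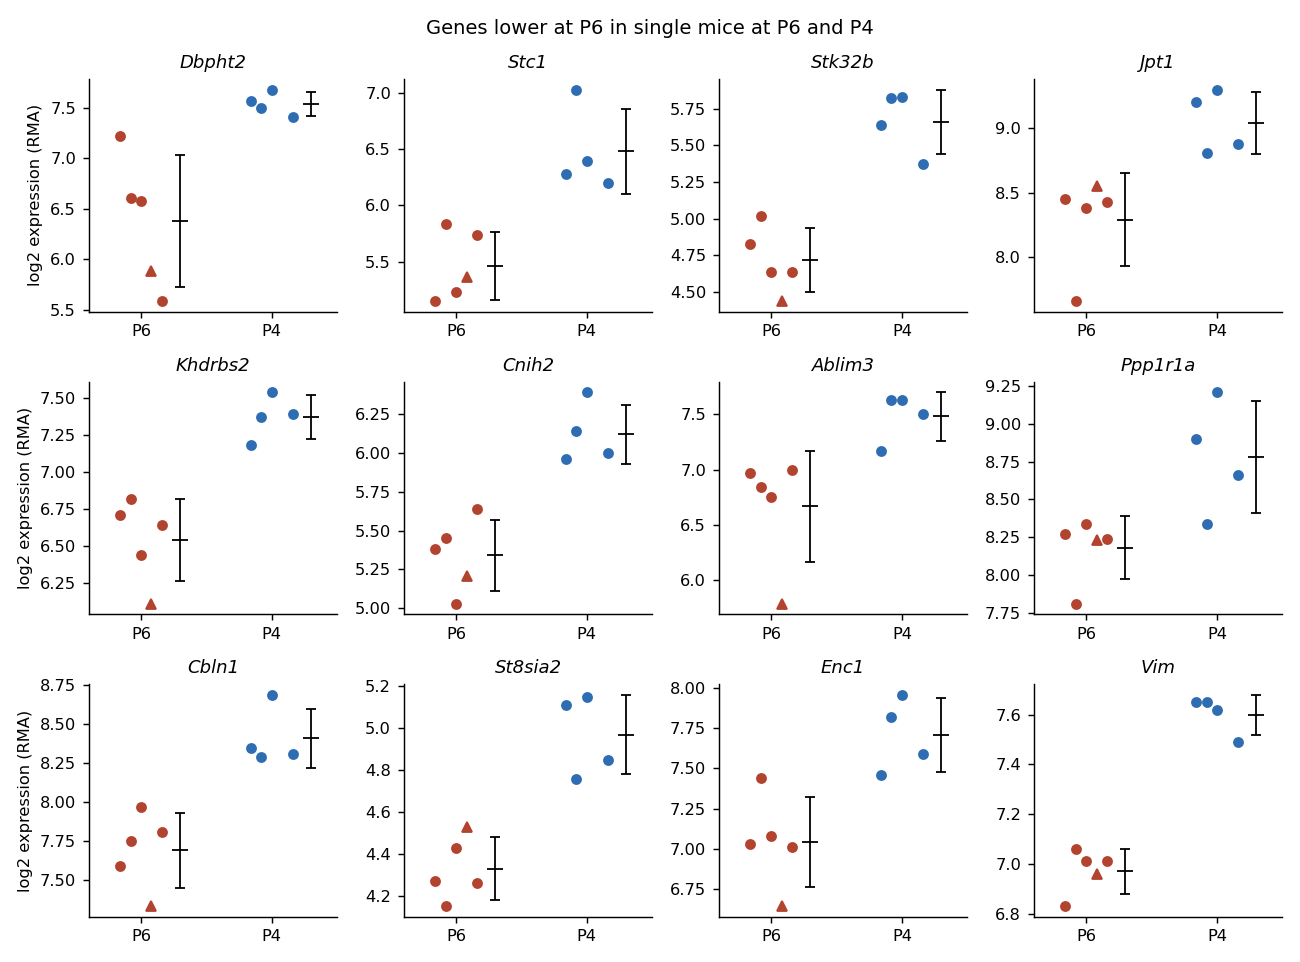
Log2 expression in single mice for the 12 called genes with the largest decreases whose ages do not overlap, P6 mice (red) left of P4 mice (blue), each panel on its own scale. Triangles mark the P6 mouse of litter 4 and bars show the mean ± SD (n = 5 at P6, n = 4 at P4). Vim has tight, separate groups, and the P6 mice of Dbpht2 are widely scattered.

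Outside the lists the largest increases were in Cox8b and Ddc. Cox8b, a subunit of cytochrome oxidase best known from muscle, read 7.29, 6.15, 7.38, 6.94 and 5.77 in the P6 mice and 4.72, 4.36, 4.37 and 5.50 in the P4 mice. The lowest P6 mouse lay just above the highest P4 mouse, both of litter 5, and the change was 1.87 ± 0.358 (adjusted p = 0.00587), lost without P4 litter 3 (adjusted p = 0.0531). Ddc, the enzyme that makes dopamine and serotonin from their precursors, averaged 6.88 ± 0.22 at P6 and 5.46 ± 0.22 at P4 (change 1.42 ± 0.16, adjusted p = 7.26e-06).

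In the lists of 17 astrocyte, 17 microglia, 15 endothelial, 12 pericyte, 11 fibroblast, 6 ependymal, 3 erythroid and 6 Schwann cell genes no member passed the test between P6 and P4, with list medians between -0.083 and 0.131. The mean level of the astrocyte list lay between 7.43 and 7.82 in the P6 mice and between 7.51 and 7.67 in the P4 mice, and that of the microglia list between 5.06 and 5.28 at P6 and between 4.92 and 5.18 at P4. For the myelin protein list the same mean lay between 6.47 and 7.08 at P6 and between 5.51 and 5.72 at P4. The Schwann cell list, of the cells that make peripheral myelin, stayed between 4.27 and 4.43 at P6 and between 4.23 and 4.33 at P4, below the median of the arrays.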

How the data were processed

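The values are log2 RMA levels of 16686 probe sets in 33 mice as deposited by the authors. The submitters' processing notes name Partek 6.3, RMA and the build mm9. RNA was amplified before labelling, per the labels' protocols, and arrays give no read depth, so the number of mice limits the precision. Genes were named from the platform annotation through RefSeq's table for GRCm38.p6: 14993 probe sets had a single symbol, 1019 several and 674 none. Of the first, 14939 were found by Entrez number and 54 kept the annotation's symbol. The brightest probe set stood for each of the 135 genes with several.

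Limma 3.58.1 (R 4.3.3) was fitted to the 33 arrays together, with 7 age means and the litter number of the titles as a fixed block. Contrasts were P6 minus P4, P4 minus P2, P14 minus P6 and the change of pace. P-values are two-sided and were adjusted by Benjamini-Hochberg across every probe set of a contrast, dim ones included, with a threshold of 0.05. The fit was tested on simulated data. A mean difference can differ slightly from a fitted change, which is adjusted for litter number.

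The numbers come from titles that call them litters, and whether a number marks the same litter at every age is not stated. Deviations from the age means correlated at -0.321, 0.305, 0.023 and 0.109 between P6 and P4 arrays of litters 1, 2, 3 and 5. The value for litter 1 was the lowest of all pairs of a P6 and a P4 array. The highest, 0.347, joined P6 litter 4 and P4 litter 1. P6 and P4 arrays thus did not pair by number in a regular way. Over all ages pairs of the same number averaged 0.092 and other pairs -0.022, and the consensus correlation of litter was 0.0989. The fit without the block is therefore given beside the 11 genes named by rule whose call it ended. Further members, named to fill out a list, are given without that fit.

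The members and the 28 gene lists were chosen with earlier results of these data known. Genes were named by a rule: the 12 largest called increases and the 12 largest called decreases whose mice do not overlap, up to 4 called members of each list, a set of lineage genes whatever their change, and called changes of pace. Further members are named to fill out a list. Alternatives were no block, a random block, P4 and P6 arrays only, quantile normalization, centring on the median, a filter on dim probe sets, array weights, a variance trend and leaving out each mouse. The fit without both P6 litter 4 and the block was added after seeing the data.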

Additional observations from a re-analysis of the deposited data

Results flagged for a closer look

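Within an age, a mouse was marked when its gap to the nearest other mouse took up more of the range than Dixon's 95% limit allows. Of 124 groups tested 18 were marked, and chance marks about 1 in 20. The P6 mouse of litter 1 was high for Ermn at 7.46 (others between 6.36 and 6.62) and for Mog at 8.68 (others between 7.78 and 8.0), and without it both genes remained called.

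The P6 mouse of litter 4, whose array stands apart, was low for 8 genes. These were Tspan2 at 8.30, Tppp at 6.81, Ablim3 at 5.79, Cnksr3 at 5.26, Cemip2 at 5.44, Gria3 at 7.61, Sox10 at 5.23 and Dcx at 7.45. The P6 mouse of litter 2 was low for Jpt1 at 7.66 and Ppp1r1a at 7.81.

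At P4, the litter 2 mouse was low for Ddc at 5.14 and Fa2h at 6.29, the litter 3 mouse was high for Cbln1 at 8.69 and Sox10 at 5.66, and the litter 5 mouse was high for Cldn11 at 5.80. The upper quartile of the P4 array of litter 1 was low at 6.62 (others between 6.77 and 6.78).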

How the results depend on the processing

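No direction of a called result was reversed by any alternative, and 13 of the 47 named genes called between P6 and P4 remained called under all that tested them: Mobp, Ermn, Mog, Mag, Ugt8a, Tspan2, Tppp, Trf, Apod, Ddc, Gpr37l1, Mbp and Mal. The filter on dim probe sets removed Ermn, so Ermn was not tested under that alternative. Over 1134 values of named genes 174 lost their call and 3 gained one (Dcx in 2 and Slc6a5 in 1). A call was kept with every single mouse left out for 31 of the 47, and was lost without the replicate block for 11 and with P4 and P6 arrays only and the block for 29. Without the replicate block 80 probe sets were called, 79 of them among the 116. The fits on the 9 arrays have fewer residual degrees of freedom; otherwise the cause of a change was not tested.

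Against 98 higher and 18 lower between P6 and P4, the counts were 70 and 10 with no replicate block, 27 and 0 with P4 and P6 arrays only, 25 and 3 with these and no block, 140 and 46 after quantile normalization, 109 and 30 with each array centred, 159 and 54 with array weights and 98 and 9 without P6 litter 4 and no block. With 1 mouse left out they ranged from 57 to 104 and from 10 to 21. Changes of pace called higher numbered 8 with array weights and 2 to 4 with 1 mouse left out, against 4, and lower 3 with array weights, 2 without dim probe sets and 0 to 1 with 1 mouse left out, against 0.

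Between P4 and P2, 45 were higher and 22 lower. The higher count was 89 after quantile normalization, 88 with array weights and 16 to 60 with 1 mouse left out. The lower count was 11 with no replicate block (also without P6 litter 4), 14 with a random block, 69, 44 and 65 with quantile normalization, centring and array weights, and 8 to 24 with 1 mouse left out. Between P14 and P6, 2699 were higher and 1025 lower, and 1918 and 1849 after quantile normalization or 2046 and 1585 with centring.

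Of the lists, myelin protein genes (11 called) had 12 after quantile normalization, with each array centred, with array weights or without P6 litter 4. They had 10 without P4 litter 3, and 9 and 8 with P4 and P6 arrays only, with and without the block. Myelin lipid genes (4 called) had 2 with P4 and P6 arrays only, with or without the block, 7 after quantile normalization and 2 to 4 with 1 mouse left out. Newly formed oligodendrocyte genes (7) had 4 with no replicate block, 3 and 1 with P4 and P6 arrays only with and without it, and 3 to 8. Mature genes (7) had 3 and 4 with P4 and P6 arrays only. Precursor genes (1) had 0 there in both fits and 0 to 1. Transcription genes (2) had 1 with no replicate block, 0 and 0 with P4 and P6 arrays only, 1 without dim probe sets and 1 to 3 with 1 mouse left out. Arrays compress changes of dim probe sets, such as those of Ermn and Gjb1 at P4 and of Opalin, Ninj2, Nkx2-2, Zfp536 and Erbb3 at both ages.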

Other observations

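Some called genes outside the named rule and the lists, chosen after their values were seen, also differed without overlap of mice (limma, adjusted p in brackets). Adamts4, a protease that cleaves proteoglycans, changed by 0.82 (3.27e-05), Sema4d, a semaphorin of oligodendrocytes, by 1.11 (5.06e-05), Map7, a microtubule protein, by 0.88 (2.76e-05), Casr, the calcium-sensing receptor, by 1.04 (2.76e-05), Bace2, a membrane protease, by 0.88 (0.000269), Dio2, which activates thyroid hormone, by 0.51 (0.00145), and Nefh, the heavy neurofilament of large axons, by 0.51 (0.0167). All 7 were higher in every P6 mouse than in any P4 mouse.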
